A study of Mus musculus with 15 samples.

Results

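Dcpp1, Dcpp2 and Dcpp3 encode demilune cell and parotid proteins of the mouse, and their RNA was followed here in mammary tumours sampled before and at the end of treatment with 2 antiangiogenic drugs. The genes were taken by the transcript identifiers of the array's probes, and 1 probe carried a transcript of each gene. Thus 3 of the 19752 gene symbols matched to probes were studied. They were chosen by their signal, which was far higher at the end of treatment than before it, so their differences from the samples taken before treatment are given as a description without a test. All 3 probes were well above background on all 15 arrays and passed the filter on dim probes. The transcripts were NM_019910 for Dcpp1, NM_001039238 for Dcpp2 and NM_001077633 for Dcpp3. The genes are near copies of each other, so a probe designed on a Dcpp transcript may also bind RNA of the other copies, and the signal of each probe is best read as that of the named gene plus an unknown share of its relatives.

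The tumours came from female mice, and the labels of the treated groups name the MMTV-PyMT model, in which the mouse mammary tumour virus promoter drives the polyoma virus middle T antigen in mammary epithelium. The study asked how gene expression in these tumours changed with each drug. Treatment began at 7 weeks of age. The T0 group (n = 4) was taken before any treatment, and its labels do not repeat the name of the model. The Vehicle group (n = 3) was taken at the end of treatment with the carrier alone. The B20 group (n = 4) had received B20-4.1.1, an antibody that neutralises vascular endothelial growth factor (VEGF), at 5 mg/kg by intraperitoneal injection 2 times per week. The Nintedanib group (n = 4) had received nintedanib, an oral inhibitor of the VEGF, fibroblast growth factor and platelet-derived growth factor receptor kinases, at 85 mg/kg per day by gavage. The label of T0 replicate 4 also carries the treatment value of the vehicle group, and this array was kept in T0 by its title. The labels do not say whether the replicates are different mice or whether tumours of a mouse were pooled, nor how old the mice were at the end of treatment. The p-values therefore cover the spread among these arrays, which may be technical.

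Each sample was hybridised alone to a 1-colour Agilent array. Between 53.5% and 84.2% of probes were well above background on an array, with the highest share on T0 replicate 3. The T0 arrays lay on slides 1 and 2 and were scanned on another day than slides 3 and 4, which held all end-of-treatment arrays, so slide, scan day and the step from T0 to the end of treatment cannot be told apart. Nintedanib replicate 3 stood apart from every other array in genes of the salivary glands, and results that rest on it are given with and without it. The luminal keratins Krt8 and Krt18 and the epithelial adhesion molecule Epcam were well above background on all 15 arrays.

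Dcpp proteins are small secreted proteins. They were named for the demilune cells of the sublingual gland and for the parotid gland, where they are released into saliva, and they are also secreted by the mouse oviduct. They belong to a family with a jacalin-like lectin fold, and their human relative is ZG16B. Saliva, milk and oviduct fluid are all made by glandular epithelium, which releases such proteins from its apical surface.

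The genes lie side by side on chromosome 17 of the GRCm38.p6 assembly: Dcpp1 at chr17:23880669-23882853, Dcpp2 at chr17:23898722-23900788 and Dcpp3 at chr17:23917419-23919441. Their promoters are shown because they show how alike the copies are. Each is the RefSeq sequence of 300 bases on the plus strand, from 250 bases before to 50 bases after a transcript start, which for Dcpp1 and Dcpp3 lies inside the interval of the gene given above. Capitals mark the TATAA letters of a TATA box core. The windows are chr17:23880626-23880925 for Dcpp1, chr17:23898472-23898771 for Dcpp2 and chr17:23917208-23917507 for Dcpp3.
Dcpp1: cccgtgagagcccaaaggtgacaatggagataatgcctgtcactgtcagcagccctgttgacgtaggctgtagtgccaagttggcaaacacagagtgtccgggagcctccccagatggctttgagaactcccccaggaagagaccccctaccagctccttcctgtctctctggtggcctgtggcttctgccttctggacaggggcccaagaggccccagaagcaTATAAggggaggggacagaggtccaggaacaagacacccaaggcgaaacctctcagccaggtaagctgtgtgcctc
Dcpp2: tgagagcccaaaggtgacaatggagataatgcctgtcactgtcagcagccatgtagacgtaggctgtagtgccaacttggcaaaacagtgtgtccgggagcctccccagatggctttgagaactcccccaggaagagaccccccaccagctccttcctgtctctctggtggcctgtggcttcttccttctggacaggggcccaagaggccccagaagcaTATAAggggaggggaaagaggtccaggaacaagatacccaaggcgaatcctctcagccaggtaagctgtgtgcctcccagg
Dcpp3: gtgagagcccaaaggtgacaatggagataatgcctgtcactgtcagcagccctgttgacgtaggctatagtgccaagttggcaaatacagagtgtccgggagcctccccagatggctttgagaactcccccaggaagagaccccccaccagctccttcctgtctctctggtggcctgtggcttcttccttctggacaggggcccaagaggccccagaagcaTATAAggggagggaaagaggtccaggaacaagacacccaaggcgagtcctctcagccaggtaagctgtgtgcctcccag

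Aligned over 295 bases, the promoters of Dcpp1 and Dcpp2 were identical at 286 bases (96.95%). Those of Dcpp1 and Dcpp3 were identical at 289 of 296 bases (97.64%), and those of Dcpp2 and Dcpp3 at 291 of 298 bases (97.65%). The longest stretch without a difference was 143 bases, between Dcpp2 and Dcpp3. None of the other genes in the table, which covers 27025 genes, shared a run of 30 bases with any of the 3 promoters. Short motifs were searched on both strands. The letters TATAA were found 1 time in each promoter, on the plus strand, at base -26 from the start in Dcpp1, -31 in Dcpp2 and -29 in Dcpp3, and 24.87% of 32851 promoters in the table hold it. The E-box CANNTG was also found 1 time in each, and 72.31% of promoters hold it. Neither the STAT letters TTCNNNGAA, present in 8.3% of promoters, nor the hormone receptor half-site AGAACA, present in 18.97%, was found in these windows.

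The processed signal of the Dcpp1 probe, in scanner units after background subtraction, was 168, 162, 197 and 421 on T0 replicates 1 to 4. It was 17790, 5668 and 5733 on the 3 vehicle arrays. It was 1164, 3009, 1838 and 3895 on the B20 arrays and 1814, 6720, 47460 and 3202 on the nintedanib arrays. Every end-of-treatment array was above every T0 array, the vehicle arrays lay above all B20 arrays, and nintedanib replicate 3 was the brightest of all.

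The Dcpp2 probe was much closer to background before treatment, with processed signals of 13.8, 31.6, 21.3 and 38.4 on the T0 arrays. Its vehicle signals were 1804, 657 and 537. Its B20 signals were 129, 371, 178 and 379, and its nintedanib signals were 237, 557, 1134 and 521. The same order of groups was seen, but here vehicle replicate 1 was brighter than nintedanib replicate 3.

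The Dcpp3 probe gave 371, 409, 210 and 700 on the T0 arrays. It gave 26070, 9955 and 10320 on the vehicle arrays, 2057, 4915, 3172 and 6954 on the B20 arrays, and 3248, 8430, 57270 and 6556 on the nintedanib arrays. Nintedanib replicate 3 was again the brightest, followed by the 3 vehicle arrays.

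Levels were then set on the log2 scale relative to the 75th percentile of each array. On this scale, the level of Dcpp1 was -0.81 ± 0.60 (SD, n = 4) in T0, 4.26 ± 0.69 (n = 3) in vehicle, 2.66 ± 0.92 (n = 4) in B20 and 3.77 ± 2.10 (n = 4) in nintedanib tumours. The level of Dcpp2 was -3.97 ± 0.61 in T0, 0.98 ± 0.64 in vehicle, -0.57 ± 0.91 in B20 and 0.13 ± 1.01 in nintedanib tumours. The level of Dcpp3 was 0.02 ± 0.83 in T0, 5.00 ± 0.54 in vehicle, 3.45 ± 0.91 in B20 and 4.39 ± 1.85 in nintedanib tumours. Each probe thus had the same order of group means, vehicle, nintedanib, B20 and T0 from high to low. The nintedanib means lie within 1 SD of that group from both neighbours in that order. Without nintedanib replicate 3 they were 2.77 ± 0.75 for Dcpp1, -0.28 ± 0.70 for Dcpp2 and 3.50 ± 0.65 for Dcpp3 (n = 3), close to the B20 means.

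**Figure D1:**
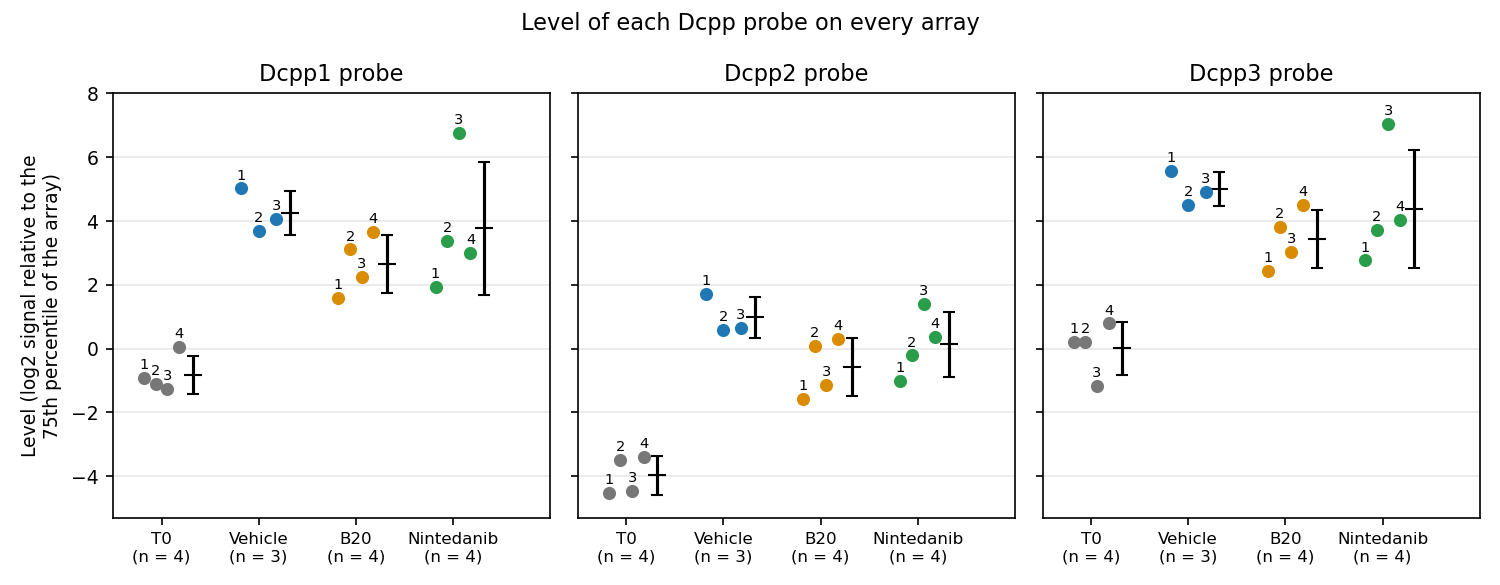
Level of the Dcpp1, Dcpp2 and Dcpp3 probes on each of the 15 arrays, as log2 signal relative to the 75th percentile of the array. Points are arrays, numbered by replicate, and bars are group means ± SD. All end-of-treatment arrays lie above the 4 T0 arrays for each probe, and nintedanib replicate 3 stands far above the other nintedanib arrays for Dcpp1 (6.77) and Dcpp3 (7.05) but less so for Dcpp2 (1.39).

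The step from T0 to the vehicle group was the widest. The level of Dcpp1 differed by 5.07 ± 0.88 (log2, ± SE of the limma fit), a 33.6-fold higher signal in vehicle tumours. Dcpp2 differed by 4.95 ± 0.58, or 30.9-fold, and Dcpp3 by 4.98 ± 0.83, or 31.6-fold. Among the 39007 probes tested these were the 4th, 7th and 6th largest increases. In this comparison 1109 probes (2.84%) passed an adjusted p of 0.05 as higher in vehicle tumours, and 10.1% of probes had all vehicle arrays above all T0 arrays, as all 3 Dcpp probes did. Since the same contrast chose the genes, nothing is read from these ranks and counts.

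The nintedanib group also lay above T0, by 4.58 ± 0.82 for Dcpp1 (23.9-fold), 4.10 ± 0.54 for Dcpp2 (17.1-fold) and 4.37 ± 0.76 for Dcpp3 (20.7-fold). Without nintedanib replicate 3 these log2 differences were 3.58, 3.68 and 3.48. The B20 group lay above T0 by 3.47 ± 0.82 for Dcpp1 (11.1-fold), 3.39 ± 0.54 for Dcpp2 (10.5-fold) and 3.43 ± 0.76 for Dcpp3 (10.8-fold). All 3 probes were without overlap with T0 in each of these comparisons, in which 9.87% of probes for nintedanib and 9.16% for B20 had all treated arrays above all T0 arrays. The 3 comparisons share the T0 arrays and are not independent of each other. In bulk tumour RNA, more cells that make a transcript and more RNA per cell cannot be told apart.

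Between the groups at the end of treatment, none of the 3 probes passed the test. Arrays of the vehicle group took part in the choice of the genes, which bears on every comparison with that group. The level in nintedanib tumours minus that in vehicle tumours was -0.49 ± 0.88 for Dcpp1, with a 95% interval from -2.39 to 1.41. It was -0.85 ± 0.58 for Dcpp2 (-2.10 to 0.40) and -0.61 ± 0.83 for Dcpp3 (-2.39 to 1.17). The adjusted p was 1 for each, from limma with Benjamini-Hochberg adjustment over all probes tested, and no probe of the array was called in this comparison (0%), while 1831 had an unadjusted p under 0.05. The nintedanib and vehicle arrays overlapped for all 3 probes. Without nintedanib replicate 3 the differences were -1.49, -1.27 and -1.50 for Dcpp1, Dcpp2 and Dcpp3, with no call. Within slide 3, which held 3 nintedanib and 2 vehicle arrays, the differences were -0.33, -1.10 and -0.53, and within slide 4, with 1 array each, they were -1.07, -0.27 and -0.88.

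B20 tumours had lower Dcpp levels than vehicle tumours on every array, yet the difference did not pass the test. Dcpp1 was at -1.60 ± 0.88 in B20 minus vehicle (95% interval -3.50 to 0.30), Dcpp2 at -1.56 ± 0.58 (-2.81 to -0.30) and Dcpp3 at -1.55 ± 0.83 (-3.33 to 0.23). The unadjusted limma p-values were 0.0919, 0.0187 and 0.0819 and the adjusted p was 1 for each. The groups did not overlap for any of the 3 probes, but the gap between the lowest vehicle array and the highest B20 array was only 0.024 for Dcpp1, 0.277 for Dcpp2 and 0.00071 for Dcpp3 (log2). Of all probes tested, 2.58% had all B20 arrays below all vehicle arrays, and none was called (0%), with 1188 at an unadjusted p under 0.05. The differences were -2.04, -2.02 and -1.95 within slide 3 and -0.39, -0.34 and -0.40 within slide 4, in the order Dcpp1, Dcpp2, Dcpp3.

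Nintedanib tumours had higher mean levels than B20 tumours, by 1.11 ± 0.82 for Dcpp1 (95% interval -0.65 to 2.87), 0.71 ± 0.54 for Dcpp2 (-0.45 to 1.87) and 0.94 ± 0.76 for Dcpp3 (-0.70 to 2.59). The limma adjusted p-values were 0.718, 0.732 and 0.758, and the arrays of the groups overlapped for each probe. No probe of the array was called (0%), with 3527 at an unadjusted p under 0.05. The difference rested on nintedanib replicate 3, without which it was 0.11, 0.29 and 0.06 for Dcpp1, Dcpp2 and Dcpp3. Within slide 3 it was 1.71, 0.92 and 1.42, and within slide 4 it was -0.68, 0.06 and -0.48.

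**Figure D2:**
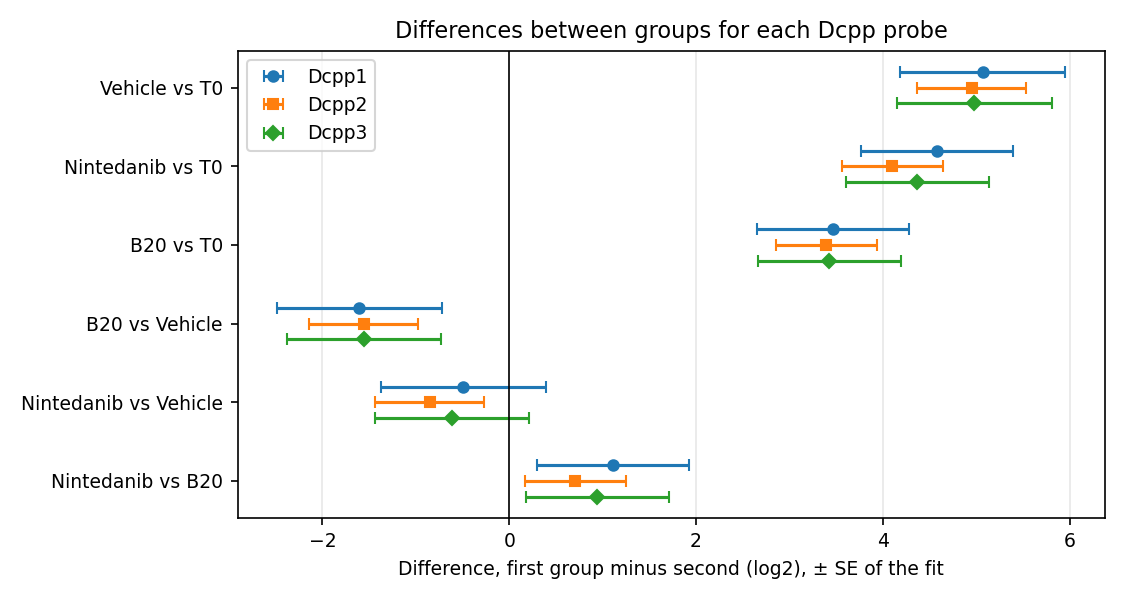
Difference in level between groups for each Dcpp probe, first group minus second (log2), with bars of ± SE of the limma fit. Differences from T0 lie between 3.39 and 5.07, while those among the end-of-treatment groups lie between -1.60 and 1.11.

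The 3 probes moved together across arrays, and they may share RNA. Over the 15 arrays Pearson's r was 0.962 between Dcpp1 and Dcpp2, 0.991 between Dcpp1 and Dcpp3 and 0.971 between Dcpp2 and Dcpp3. Over the 11 end-of-treatment arrays it was 0.895, 0.991 and 0.922, and without nintedanib replicate 3 it was 0.963, 0.983 and 0.978. These arrays hold several groups, and the values are given as a description. On 10 end-of-treatment arrays, nintedanib replicate 3 left out, the difference between the Dcpp1 and Dcpp3 probes varied by an SD of 0.193, that between Dcpp2 and Dcpp3 by 0.205 and that between Dcpp1 and Dcpp2 by 0.281 (log2).

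Nintedanib replicate 3 broke this pattern. The Dcpp1 signal minus the Dcpp2 signal was 5.39 on that array and between 2.36 and 3.60 on the other 14. The level of Dcpp1 there was 1.75 above the next highest array and that of Dcpp3 was 1.47 above it, whereas that of Dcpp2 was 0.33 below the highest array (excess -0.33). The Dcpp2 signal minus the Dcpp3 signal was -5.66 there, and the next lowest was -4.74, on T0 replicate 1. The Dcpp1 signal minus the Dcpp3 signal was -0.27, within the range of the other arrays (-1.34 to -0.09). The ratio of the Dcpp2 signal to those of Dcpp1 and Dcpp3 therefore differed on this array from all others. This is a statement about probes and not about the amount of each gene's RNA.

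The Dcpp probes also varied more than most probes over the end-of-treatment arrays, with the groups pooled. Differences between groups are part of this spread. Over those 11 arrays the SD was 1.47 for Dcpp1, 1.03 for Dcpp2 and 1.33 for Dcpp3, against a median of 0.384 over all probes tested. The brightest array was 36.0-fold above the dimmest for Dcpp1, 9.76-fold for Dcpp2 and 24.6-fold for Dcpp3. Without nintedanib replicate 3 the SDs were 1.04, 0.986 and 0.990, against a median of 0.389. B20 replicate 1 had the lowest level of the 11 arrays for each probe.

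Because the Dcpp proteins are best known from saliva, other genes of the salivary glands were read on the same arrays. Of 21 genes listed, 18 were matched to a probe and 17 were tested. The probe for Smgc, a mucin-like protein of the sublingual and submandibular glands, was well above background on 0 arrays, and Muc19, the sublingual gland mucin, was not matched to a probe. On nintedanib replicate 3, 8 of the 17 genes had their highest level of all arrays, by only 0.15 for Lpo and 0.43 for Klk1b26. How many of all probes peaked on this array was not counted. The other 6 genes were more than 4 (log2) above every other array. Among all probes tested, 17 exceeded that margin.

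Bpifa2, the parotid secretory protein, was at 7.92 on nintedanib replicate 3 and at 1.37 on the next highest array, nintedanib replicate 4. Cst10 was at 7.36 there and at 0.37 on the next highest, a gap of 7.00. Amy1, the salivary amylase, was at 7.85 there and at 3.76 on the next highest array, T0 replicate 1. The gaps were 6.68 for Smr3a, which encodes an androgen-regulated protein of the submandibular gland, 6.71 for the nuclease Dnase1 and 4.18 for the tissue kallikrein Klk1. Outside the list, and named after their values were seen, Chia1, Crisp3 and Amy2a5 stood 6.74, 6.10 and 4.68 above every other array. The array with the highest Dcpp1 and Dcpp3 signals was therefore also the array with the highest signals of these saliva genes, and the part of salivary tissue in its Dcpp signal was not tested. Nintedanib replicate 4 was next highest for Bpifa2, Cst10, Smr3a and Dnase1. Among the 15 arrays it ranked 8 for Dcpp1, 5 for Dcpp2 and 6 for Dcpp3. Over the other 10 end-of-treatment arrays, r with the Dcpp mean was -0.34 for Bpifa2, -0.23 for Cst10 and -0.50 for Amy1. It was -0.01 for Smr3a and Dnase1, -0.03 for Klk1 and, highest of the list, 0.62 for Pip.

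On the vehicle arrays, where the mean Dcpp levels were highest, the level of Bpifa2 was -4.94 ± 0.75 (SD, n = 3), and its probe was well above background on 1 of the 3 arrays. Smr3a was at -4.93 ± 0.77, Cst10 at -3.63 ± 0.28 and Amy1 at -1.84 ± 0.26. In B20 tumours, where Dcpp levels were lower, Bpifa2 was at -2.50 ± 0.76, Cst10 at -2.51 ± 0.65, Smr3a at -4.01 ± 0.35 and Amy1 at -0.21 ± 0.52 (n = 4). In T0 tumours, where Dcpp levels were lowest, Bpifa2 was at -5.41 ± 1.55, Cst10 at -5.56 ± 1.37, Smr3a at -6.33 ± 0.66 and Amy1 at 2.32 ± 1.34 (n = 4), and the probes of Bpifa2, Cst10 and Smr3a were well above background on 2, 1 and 0 of the 4 arrays. From T0 to vehicle the means of Bpifa2, Cst10 and Smr3a thus went the way of Dcpp and that of Amy1 the other way. From vehicle to B20 the means of these 4 went the other way from Dcpp. The 17 tested genes were divided. In vehicle against T0, 8 had higher and 9 had lower means, and in B20 against vehicle 10 had higher and 7 had lower means. The mean level over the 17 genes ranged from -1.46 to 0.00 in T0, from -1.20 to -0.68 in vehicle, from -0.82 to -0.59 in B20 and from -1.09 to 2.97 in nintedanib tumours.

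**Figure D3:**
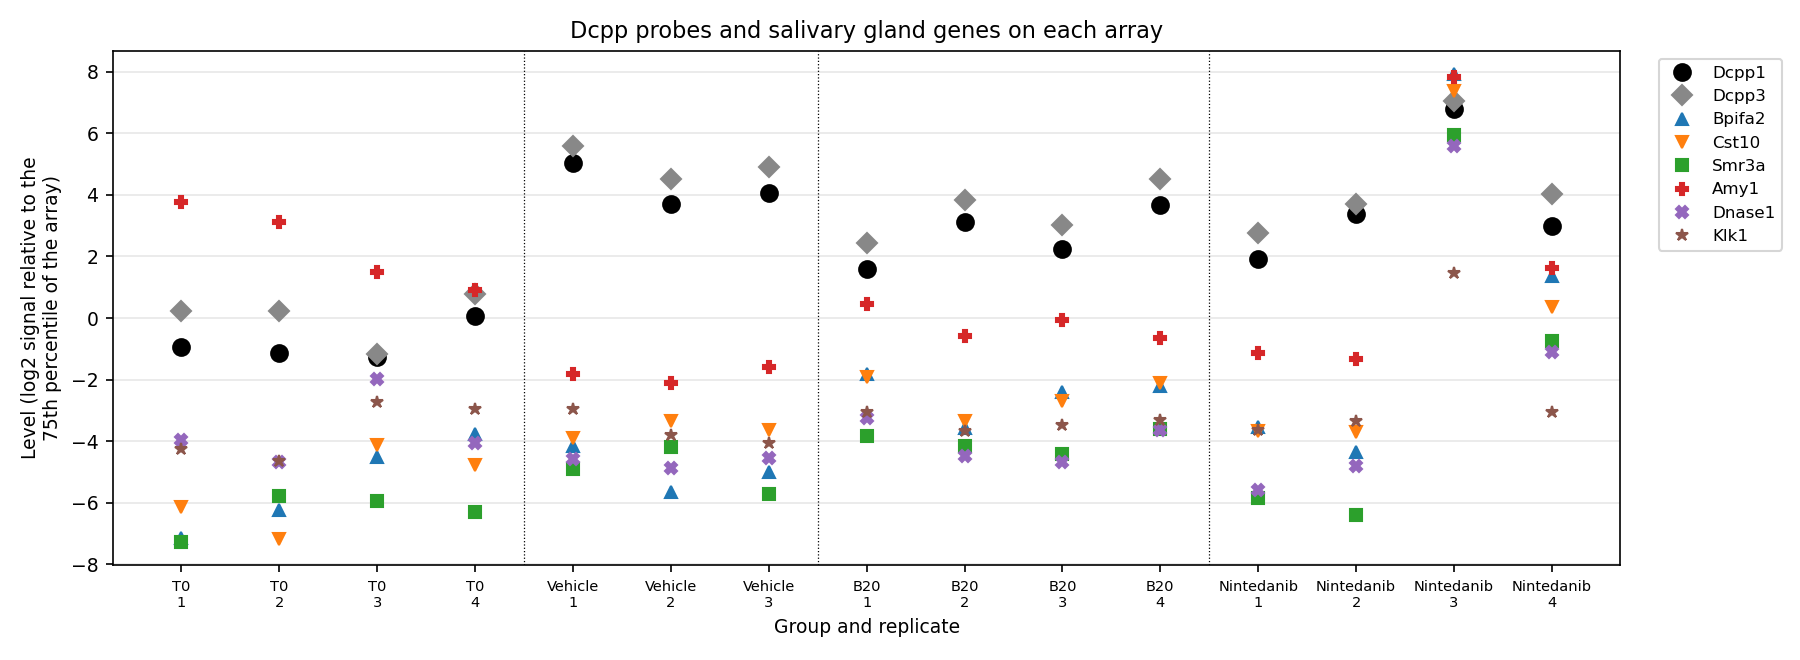
Levels of the Dcpp1 and Dcpp3 probes and of 6 salivary gland genes on each array, as log2 signal relative to the 75th percentile of the array. Each symbol is to be read along the arrays and not against the other symbols, since probes differ in brightness. The salivary genes rise steeply on nintedanib replicate 3, where Bpifa2 is at 7.92, and Bpifa2 averages -4.94 on the vehicle arrays and -5.41 on the T0 arrays.

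As a group, the 17 salivary genes had a median difference of -0.08 between vehicle and T0, 0.53 between nintedanib and T0 and -0.32 between B20 and T0, against medians of 0.06, 0.05 and 0.09 over all probes tested. By limma, 0 of 17 were called in vehicle against T0, where 4.69% of all probes were called in either direction. In nintedanib against T0, where 10.6% of probes were called and 6.81% rose, 1 rose, the water channel gene Aqp5, by 0.86 ± 0.18 (adjusted p = 0.012). In B20 against T0, where 8.51% of probes were called and 5.46% rose, Aqp5 rose by 0.63 ± 0.18 (adjusted p = 0.048) and Car6, the secreted carbonic anhydrase of saliva and milk, fell by 2.44 ± 0.61 (adjusted p = 0.030). The B20 call of Aqp5 was lost when any of 12 of the 15 arrays was left out. That of Car6 was lost without T0 replicate 1 or without B20 replicate 1, 2 or 4. The Car6 call was also lost with slide as a random block (limma adjusted p = 0.059), only the 2 groups in the fit (0.067) and array weights (0.066). The nintedanib call of Aqp5 was lost with median scaling (limma adjusted p = 0.135) and with only the 2 groups in the fit (0.051). No salivary gene was called between the end-of-treatment groups, where the median difference between nintedanib and vehicle was 0.78. The median was 0.35 in that comparison and 0.28 between nintedanib and T0 when nintedanib replicate 3 was left out. Leaving out single arrays moved the numbers called in B20 against T0: 1 fell and 0 rose without T0 replicate 3, 2 rose and 1 fell without T0 replicate 4, and 2 rose and 2 fell without nintedanib replicate 3. In nintedanib against T0, 2 rose without T0 replicate 4, and in vehicle against T0, 1 fell without nintedanib replicate 3.

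Of 19 genes for other secreted products of glandular epithelium, 18 were tested, and their median difference was -0.22 for vehicle, 0.28 for nintedanib and 0.06 for B20 against T0. The nintedanib median was 0.09 without nintedanib replicate 3, and without T0 replicate 3 the medians were 0.00, 0.43 and 0.28. Of the 18, 0 were called in vehicle, 1 in nintedanib and 1 in B20 against T0, beside 4.69%, 10.6% and 8.51% of all probes. Bpifb1, a secreted relative of Bpifa2, rose in nintedanib against T0 by 1.89 ± 0.56 (limma adjusted p = 0.047), a call lost when any of 14 of the 15 arrays was left out. Slpi, a secreted protease inhibitor, rose in B20 against T0 by 1.70 ± 0.44 (limma adjusted p = 0.032). This call was lost without T0 replicate 1 or 2 or B20 replicate 1, 2 or 4. It was also lost with median scaling (limma adjusted p = 0.060) and without a filter on dim probes (0.053). Slide as a random block (0.057) and only the 2 groups in the fit (0.061) lost it too. The numbers called as higher were 2 for vehicle, 3 for nintedanib and 3 for B20 without T0 replicate 3, 1, 1 and 3 without T0 replicate 4, with 1 gene lower in B20, and 1, 0 and 1 without nintedanib replicate 3, again with 1 lower in B20. Lcn2, an iron-binding lipocalin, differed by 0.58 ± 0.21 between vehicle and T0 (adjusted p = 0.133 by limma). The immunoglobulin carrier Pigr differed by -0.41 ± 0.38 and lactoferrin, Ltf, by -0.35 ± 0.34, neither past the threshold. Zg16, a zymogen granule lectin of the same family as Dcpp, was well above background on 2 T0, 1 vehicle, 0 B20 and 1 nintedanib arrays.

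Of 12 milk genes tested, 3 fell from T0 to vehicle, 6 from T0 to nintedanib and 5 from T0 to B20, with 0 rising, where 1.84%, 3.81% and 3.06% of all probes fell, and their medians were -1.57, -1.60 and -1.37. The casein gene Csn2 was at 7.16 ± 1.09 (SD, n = 4) in T0, 2.05 ± 1.88 (n = 3) in vehicle, 2.65 ± 1.36 in B20 and 1.90 ± 2.26 in nintedanib tumours. It differed by -5.10 ± 1.18 between vehicle and T0 (adjusted p = 0.029 by limma), a call lost without T0 replicate 1 or 2 or vehicle replicate 1 or 3. Csn1s2a fell by 6.09 ± 1.06 between T0 and vehicle (limma adjusted p = 0.0096). Wap, the whey acidic protein, fell by 2.78 ± 0.51 in nintedanib against T0 (limma adjusted p = 0.0070) and differed by -1.76 ± 0.55 in vehicle (adjusted p = 0.086). Csn3 differed from T0 by 0.39 ± 0.31 in vehicle, 0.43 ± 0.29 in nintedanib and 0.56 ± 0.29 in B20 and was not called. With only the 2 groups in the fit, the vehicle calls of Csn2 and Csn1s2a were lost (limma adjusted p = 0.0876 and 0.0639). Without T0 replicate 3 the counts of milk genes that fell were 2, 6 and 4, and without nintedanib replicate 3 they were 3, 5 and 4.

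Markers of the cells that make up the tumours were read in the same way. Adipocyte genes fell in all 3 end-of-treatment groups, with 12 of 14 called for vehicle, 12 for nintedanib and 13 for B20 against T0. Of all probes, 1.84%, 3.81% and 3.06% fell in these comparisons. The adipocyte medians were -4.73, -3.18 and -2.87. Adipoq, the adipokine adiponectin, differed by -6.15 ± 0.98 between vehicle and T0 (limma adjusted p = 0.0069, and 0.0642 with only the 2 groups in the fit). Averaged over the 14 genes, levels lay between 2.90 and 5.11 on the T0 arrays and were -0.44 ± 0.76 (SD, n = 3) in vehicle, 1.15 ± 0.79 (n = 4) in B20 and 1.03 ± 1.23 (n = 4) in nintedanib tumours. The highest later array, of the nintedanib group, was at 2.59. The 13 skeletal muscle genes all had lower means than in T0, with medians of -3.81, -2.77 and -1.51 for vehicle, nintedanib and B20, and 0 were called, with 1 falling in nintedanib when T0 replicate 4 was left out. The order of the adipocyte means, vehicle, nintedanib, B20 and T0 from low to high, was the reverse of the Dcpp order. The adipocyte means of nintedanib and B20 were within their spread of each other. Means over the skeletal muscle genes had the same order, at -0.07, 0.93, 1.94 and 3.57, with SDs of 1.46, 1.53, 2.83 and 2.38. The part of the tissue's makeup in the Dcpp differences from T0 was not tested. Without nintedanib replicate 3 the adipocyte counts were 12, 9 and 9, and the number of calls over the whole array also moved when single arrays were left out.

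Of 17 luminal epithelial genes tested, 1 fell in vehicle, 2 in nintedanib and 1 in B20 against T0, beside 1.84%, 3.81% and 3.06% of all probes, with medians of -0.34, -0.38 and -0.29. Esr1, the oestrogen receptor, fell in all 3 groups, by 1.80 ± 0.39 in vehicle (limma adjusted p = 0.023). Without T0 replicate 4, 2 luminal genes fell in each comparison and 1 rose in nintedanib, and 1 also rose in nintedanib without nintedanib replicate 3. The vehicle call for Esr1 was lost with only the 2 groups in the fit (limma adjusted p = 0.140) and without T0 replicate 1 or 2 or any vehicle array, and the B20 call without T0 replicate 1 or 2 or B20 replicate 2 or 4. Elf5, a regulator of alveolar luminal cells, fell by 0.76 ± 0.17 in nintedanib (limma adjusted p = 0.014), a call lost with median scaling (0.120) and with quantile normalisation (0.067). Krt8 differed by 0.54 ± 0.27 between vehicle and T0, Krt18 by -0.19 ± 0.18 and Epcam by -0.71 ± 0.29, none of them called. Of 10 basal epithelial genes, 1 fell in vehicle, 1 fell in nintedanib, and in B20 1 rose and 2 fell. Of all probes, 2.84%, 6.81% and 5.46% rose in the 3 comparisons. The basal medians were -0.39, -0.46 and -0.86. Leaving out T0 replicate 4 raised the basal counts, to 2 rising and 3 falling in vehicle and in nintedanib and 2 rising and 5 falling in B20. Calls over the whole array also moved when single arrays were left out, so nothing about basal genes alone is read from this. With nintedanib replicate 3 left out, 0 were called in nintedanib and 1 rose and 1 fell in B20, and without T0 replicate 3, 1 fell and 0 rose in B20. The basal keratins Krt5 and Krt14 differed by -0.02 ± 0.36 and 0.65 ± 0.31 between vehicle and T0 and were not called.

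Of 12 endothelial genes, 3 fell in vehicle, 3 in nintedanib and 8 in B20 against T0, beside the same shares of all probes, with medians of -0.83, -0.84 and -1.34. The vehicle count was 1 without nintedanib replicate 3 and 5 without T0 replicate 4, and the nintedanib count was 6 without T0 replicate 3. Of 12 fibroblast and matrix genes, 0 were called in vehicle, and 1 fell in nintedanib and 1 in B20, with medians of -0.33, -0.42 and -0.69. The B20 count was 3 without T0 replicate 3 or 4, the nintedanib count was 2 without T0 replicate 4, and both were 0 without nintedanib replicate 3. No macrophage gene of 10 tested was called, with medians of 0.11, 0.24 and 0.24, and 1 rose in B20 without T0 replicate 4. Of 14 cell cycle genes, 0 were called in vehicle, 2 fell in nintedanib and 0 were called in B20, with medians of 0.24, -0.29 and -0.14, and the proliferation marker Mki67 differed by 0.32 ± 0.26 between vehicle and T0. In nintedanib 1 cell cycle gene fell when T0 replicate 3, T0 replicate 4 or nintedanib replicate 3 was left out. None of the genes in these lists was called between the end-of-treatment groups.

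**Figure D4:**
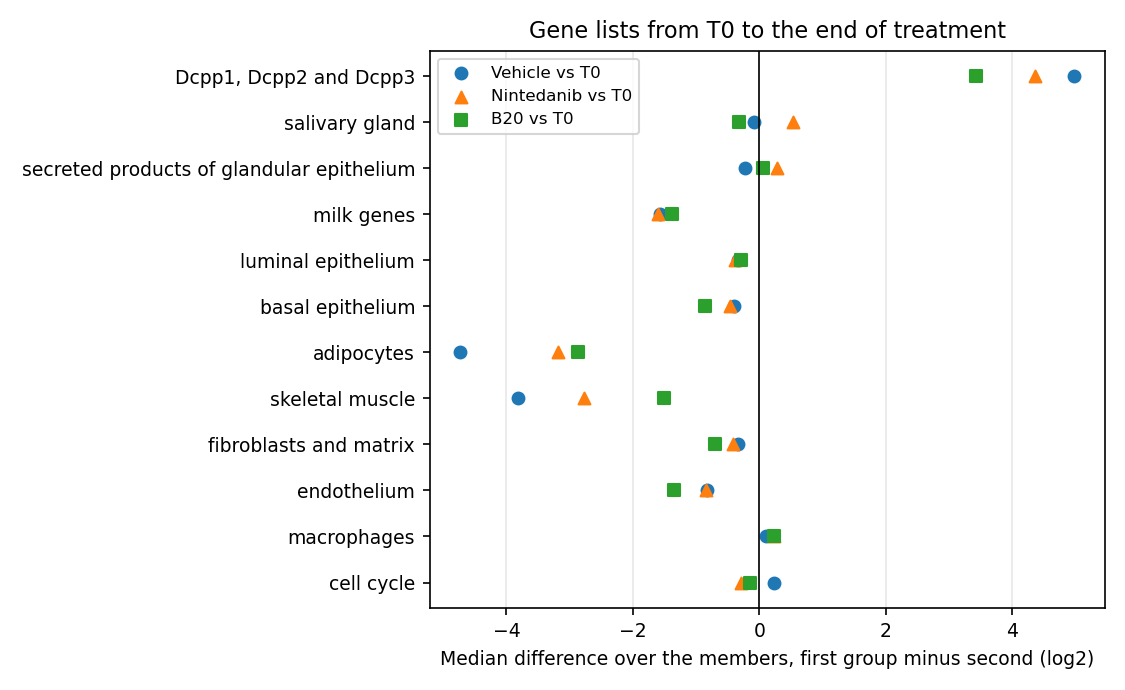
Median difference from T0 over the tested members of each gene list, for vehicle, nintedanib and B20 (log2). The 3 Dcpp genes, chosen for this contrast, lie between 3.43 and 4.98, the other lists lie at or below 0.53, and adipocyte genes lie between -4.73 and -2.87.

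The genes beside Dcpp on chromosome 17 are mostly serine protease genes of the Prss family. The 3 nearest genes with a tested probe were Prss33, Prss41 and Prss32 on the side of lower coordinates and Prss30, Prss22 and Prss27 on the other, while Prss21, Sbp and Sbpl, which lie between, had no tested probe. Of the 6, only Prss22, an epithelial serine protease, passed the test against T0. It rose by 1.40 ± 0.31 in vehicle (limma adjusted p = 0.024), by 1.56 ± 0.28 in nintedanib (adjusted p = 0.0067) and by 1.51 ± 0.28 in B20 (adjusted p = 0.011). Its probe was dim before treatment, at -5.05 ± 0.65 (SD, n = 4) in T0 with 1 of 4 arrays well above background, and well above background on every later array. The size depended on the background correction: with normexp the differences were 0.42, 0.41 and 0.41, and with the authors' values 0.43, 0.41 and 0.41, with all 3 calls kept. The vehicle call was lost without T0 replicate 1 or 2 or vehicle replicate 1 or 2 and with only the 2 groups in the fit (limma adjusted p = 0.169). The other neighbours had limma adjusted p-values of 0.0938 or more. Prss32, next to Dcpp1 among the tested genes, differed by -0.54 ± 0.54 in vehicle, 0.02 ± 0.50 in nintedanib and -1.43 ± 0.50 in B20 against T0. Prss30, the nearest tested gene after Dcpp3, differed by 0.40 ± 0.47, 1.18 ± 0.44 and 0.97 ± 0.44.

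**Figure D5:**
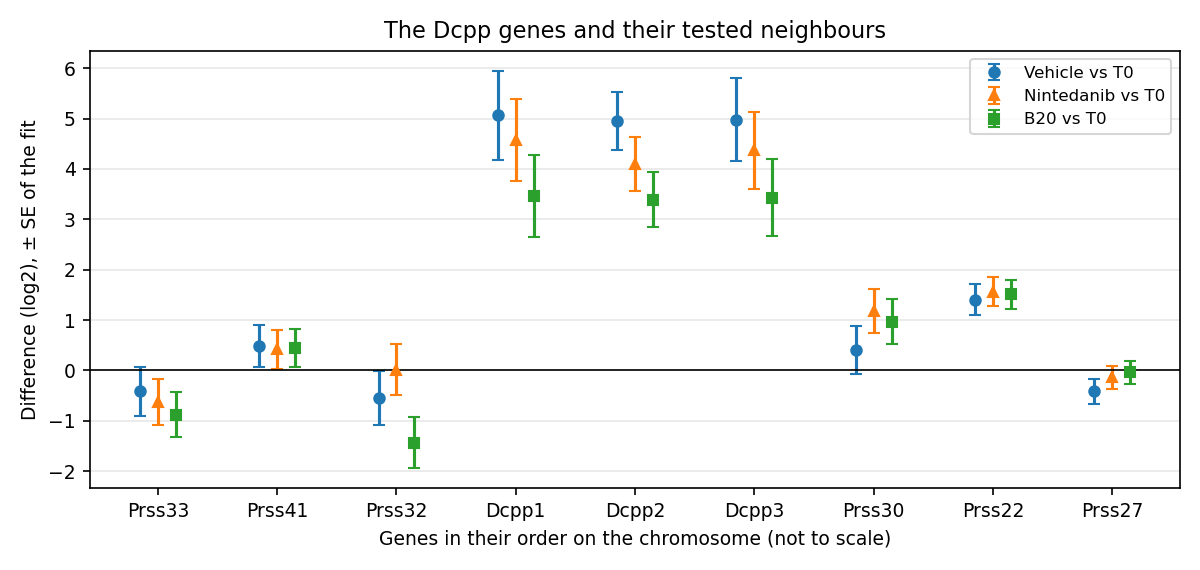
Difference from T0 (log2, ± SE of the limma fit) for the 3 Dcpp genes and the tested genes on each side of them, in chromosome order and not to scale. The Dcpp genes lie between 3.39 and 5.07, and the highest neighbour, Prss22, lies between 1.40 and 1.56.

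The genes whose pattern over the 15 arrays was most like the mean of the Dcpp probes were Zfp14 (Pearson's r = 0.938), Sirt7 (0.923), Gcfc2 (0.923), Zfp709 (0.915), Fut9 (0.910), Arl10 (0.908), Fam204a (0.905) and Zfp111 (0.903). Over the 11 end-of-treatment arrays alone r was 0.797 for Zfp14, 0.705 for Sirt7, 0.812 for Gcfc2 and 0.737 for Zfp709, and it was 0.644, 0.583, 0.488 and 0.664 for the other 4 in the order given. The arrays fall into T0 and later groups, and r over all 15 includes the step between them. These genes changed far less than Dcpp, by 0.44 for Zfp14 and 0.69 for Sirt7 and at most 1.80, for Fut9, between vehicle and T0. Several are zinc finger genes, and Sirt7 encodes a nuclear deacetylase of the sirtuin family.

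Closer than any named gene was a probe for the transcript XM_001475864, singled out after its values were seen. This transcript was not matched in the RefSeq gene table, and gene names in the array's own annotation were not read. The r of this probe with the Dcpp mean was 0.993 over the 15 arrays and 0.975 over the 11 end-of-treatment arrays. Without nintedanib replicate 3 the latter was 0.957. The probe's level was -2.87, -2.47, -3.27 and -1.55 on the T0 arrays and 2.92, 2.21 and 1.72 on the vehicle arrays. It was -0.09, 1.62, 0.50 and 1.84 on the B20 arrays and 0.17, 0.83, 3.81 and 1.74 on the nintedanib arrays. As with the Dcpp probes, all later arrays lay above T0. Nintedanib replicate 3 was the highest, as for Dcpp1 and Dcpp3 but not for Dcpp2.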

How the data were processed

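Total RNA of 15 mammary tumour samples was hybridised to 1-colour (Cy3) Agilent arrays. Per the file headers, the authors read the arrays with Feature Extraction, which gave each spot an intensity, background-subtracted and detrended within the array, and flags (other values) for spots above background, saturated or outlying. The deposited series table holds log2 values whose making is not stated. They lay close to normexp and quantile values computed here from the scanner intensities (median r 0.99992).

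Here, with R 4.3.3 and limma 3.58.1, outlier spots were dropped, spots of a probe averaged, and log2 intensity taken relative to the 75th percentile of each array. Probes well above background on at least 3 arrays were tested, 39007 of 55681, in 1 limma fit of 4 group means, with Benjamini-Hochberg adjustment over all of them and a threshold of 0.05. Intervals are 95%. The number of arrays limits the precision. Of all probe values 82 were imputed, none of a Dcpp probe, and 0 spots were saturated. Gene names are those of the RefSeq gene table, matched by the transcript identifier of each probe. This gave 26056 probes a symbol, and the other 29625 had no match there. Of the 3 Dcpp genes, 3 matched RefSeq (GRCm38.p6), which gave positions and promoters.

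The genes and lists were chosen with earlier results of these data known. The genes named in the text are the 3 Dcpp genes, the 8 genes most correlated with them, the 3 nearest tested genes on each side, set markers of each list, called salivary and secreted genes, and further members given as examples after their values were seen. Replicate numbers are not known to pair samples, and the main fit did not pair them. Of 21 pairs of the same number, 5 had deviations from the group means that correlated above 0.1. Pairs of unlike number were not compared, so this does not decide whether the numbers pair samples. Alternatives were other scaling, quantile and normexp normalisation, the authors' values, other probe filters, 1 probe per gene, slide as a block, 2 groups only, array weights, a replicate block and leaving out arrays. The normexp alternative had been planned on the mean signal and used the median signal. The fit was tested on simulated data.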

Additional observations from a re-analysis of the deposited data

Results flagged for a closer look

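2 of 57 groups of 4 arrays had an array far from the others, by Dixon's ratio against a critical value of 0.829, where chance gives about 1 in 20. T0 replicate 3 had a mean level of 1.22 (log2) over the secreted products of glandular epithelium, and the next highest T0 array had 0.247. Nintedanib replicate 2 had a mean level of 4.19 over the milk genes, and the next highest nintedanib array had 2.56. None of the flags fell on a Dcpp probe.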

How the results depend on the processing

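For the 3 Dcpp probes, no alternative made a call between end-of-treatment groups: limma adjusted p-values ranged from 0.663 to 1 for nintedanib against vehicle, from 0.716 to 1 for B20 against vehicle and from 0.407 to 1 for nintedanib against B20. Direction turned in 4 values. Dcpp1 in nintedanib against vehicle was 0.12 without nintedanib replicate 1, and leaving out 1 array at a time gave values from -1.49 to 0.12. Nintedanib against B20 was -0.0034 for Dcpp1, -0.040 for Dcpp2 and -0.21 for Dcpp3 without nintedanib replicates 3 and 4, an alternative chosen after seeing the data, as were the list counts without T0 replicate 3 or 4 or nintedanib replicate 3. Leaving out 1 array at a time, the mean of the Dcpp probes ranged from -1.42 to -0.14 for nintedanib against vehicle, from -1.90 to -1.22 for B20 against vehicle and from 0.15 to 1.43 for nintedanib against B20. Against T0 it ranged from 4.65 to 5.25 for vehicle, from 3.58 to 4.86 for nintedanib and from 3.10 to 3.77 for B20. Dcpp2, the dimmest of the probes before treatment, lay 3.41 (vehicle), 2.65 (nintedanib) and 2.03 (B20) above T0 with normexp and 3.42, 2.66 and 2.04 with the authors' values, so its size there depends on the background correction.

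The number of probes called in the whole array moved more. Against T0 the main counts were 1828 for vehicle, 4144 for nintedanib and 3321 for B20. They were 969, 1880 and 1584 with median scaling, 1091, 2590 and 1879 with slide as a random block, 18, 1657 and 1102 with only the 2 groups in the fit and 6985, 10421 and 7521 with array weights. Without a filter they were 987 for vehicle and 1947 for B20. Without nintedanib replicates 3 and 4, 1425 were called for nintedanib. Leaving out 1 array at a time, the counts ranged from 586 to 2684, from 1974 to 5490 and from 1038 to 4291. They fell by over 1.5 times without T0 replicate 1 or 2 in all 3 comparisons, without any vehicle array for vehicle, without nintedanib replicate 1, 2 or 3 for nintedanib and without B20 replicate 2, 3 or 4 for B20. The list counts given with single arrays left out are to be read beside these changes. The split of calls in vehicle against T0 was 60.7% higher, and 44.4% among the 18 calls with only the 2 groups. In nintedanib against vehicle, 1 probe was called with normexp, 1 with the authors' values and 36 with array weights. Leaving out 1 array at a time gave 0 to 3 calls there, 0 to 1 in nintedanib against B20 and 0 in B20 against vehicle.

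With the replicate number as a block, the mean of the Dcpp probes was -0.81 for nintedanib against vehicle, -1.73 for B20 against vehicle and 0.92 for nintedanib against B20, with no call, and the counts against T0 were 1529, 3415 and 2565. Of the calls named in the text, the vehicle call of Prss22 (limma adjusted p = 0.0556), the nintedanib call of Bpifb1 (0.0559) and the B20 call of Aqp5 (0.0775) were lost. The numbers are not known to pair the samples.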
